A study of Mus musculus with 27 samples.

Results

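Undifferentiated cells of a pair of mouse induced pluripotent stem cell lines were compared: 19BL, reprogrammed with 4 transcription factors and called 4F, and H9, reprogrammed with 3 and called 3F. Each line had 3 arrays at day 0, so the means compared come from 6 of the 27 arrays of the study, picked by their labels. The spread was estimated over all 27. Both lines had been grown on feeder cells inactivated with mitomycin, in embryonic stem cell medium with leukemia inhibitory factor (LIF), and the same holds for the R1 embryonic stem cells, which also had 3 arrays at day 0 and whose levels are given as context. Each kind of reprogramming was represented by 1 line, so the number of factors and every other property of a line cannot be told apart, and the labels used here name neither the factors nor the mouse strain. The other 18 arrays were of the same lines after 5 and 11 days as embryoid bodies, formed in medium with 20% serum and no LIF. RNA came from whole cultures, feeder cells included as far as they were collected.

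Mouse pluripotent cells in serum and LIF keep a network of transcription factors active, in which Pou5f1 (Oct4), Sox2 and Nanog form the shared core, and Klf4, Esrrb, Tfcp2l1, Tbx3, Prdm14 and Nr5a2 belong to the naive state of the early epiblast. As the epiblast moves towards the primed state, that naive set declines and genes such as Fgf5 are switched on. A separate set of genes, called interferon-stimulated, often carries a repeated GAAA element in its promoters and encodes antiviral proteins. Pluripotent cells are known for a weak response to interferon, while fibroblasts, the usual feeder cells, respond strongly.

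Signals are log2 values from robust multi-array averaging (RMA), and a difference is 4F minus 3F on that scale, with its standard error from limma after ±. A gene was called when its Benjamini-Hochberg adjusted p in limma was under 0.05 and its difference reached 2-fold, a log2 difference of 1. Pluripotency markers were high in all 6 arrays: the mean signal of 7 of them was 12.60, 12.90 and 12.70 in 4F replicates 1, 2 and 3, against 12.23, 12.45 and 12.18 in 3F replicates 1, 2 and 3. Markers of feeder fibroblasts were present too and differed between arrays. The mean of 8 such markers was 10.34, 9.39 and 9.78 in 4F and 10.91, 10.82 and 11.61 in 3F, with 4F replicate 2 lowest and 3F replicate 3 highest, and 10.18, 9.17 and 9.39 in R1. In RNA from whole cultures, fewer cells of a type and less RNA per cell cannot be told apart. Markers of macrophages (4), endothelium (3), trophoblast (3) and neural progenitors (3) gave 0 calls in limma and 0 at an unadjusted p under 0.05. Of 4 extraembryonic endoderm markers 1 was called higher in 4F and 2 had an unadjusted p under 0.05, and their mean was 6.87, 6.83 and 7.10 in 4F, against 5.95, 6.10 and 6.12 in 3F, without overlap. The called marker was Sox17, whose second probe set gave a difference of only 0.26, so this mean depends in part on the probe set. An index of RNA quality, the 3' minus the 5' signal of Actb and Gapdh controls, which grows as RNA is degraded, was 1.31 ± 0.11 in 4F and 1.09 ± 0.07 in 3F (SD, n = 3 each).

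Of 18193 genes, 360 were called (1.98%), 161 of them higher in 4F (0.885%) and 199 lower (1.09%). The 2 lines did not overlap in any of the 360, nor in 31.9% of all genes. At least 4-fold differences were seen for 30 higher and 26 lower genes, at least 8-fold for 8 higher and 2 lower, and at least 16-fold for 2 genes, Ifit1 and Rtp4, both higher. The 4F mean lay nearer than the 3F mean to that of R1 in 73 of the 161 higher genes and in 143 of the 199 lower ones. The same share over all genes is not given here, so whether these counts are unusual cannot be told. The count of lower genes leaned on single arrays: it was 82 without 4F replicate 2, 86 without 3F replicate 3, 120 without 3F replicate 1 and 123 without 4F replicate 3. Calls that stood in the full fit and in each of 6 fits that left out 1 array numbered 154, of which 87 were higher and 67 lower.

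**Figure D1:**
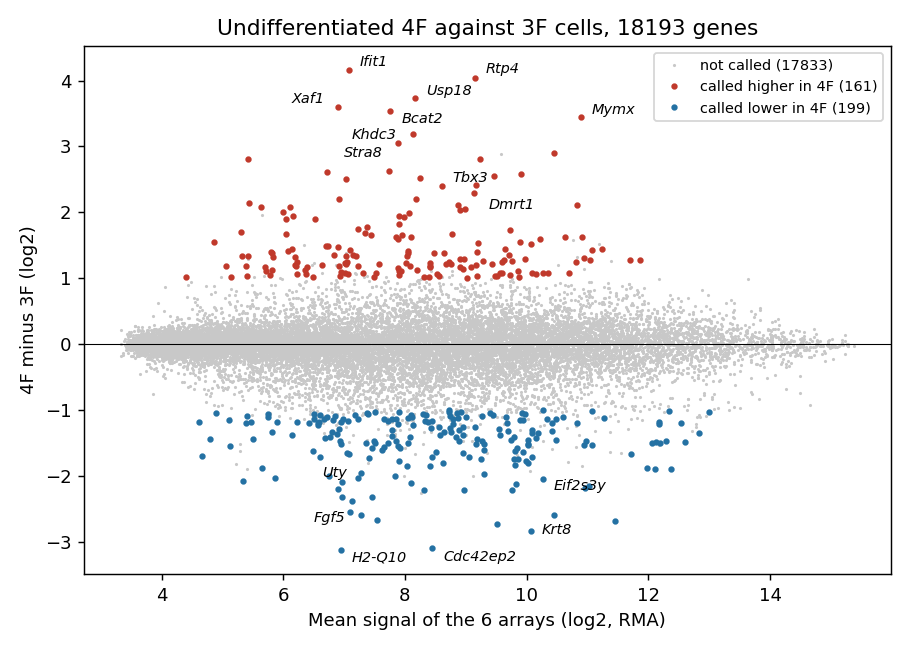
Difference of undifferentiated 4F minus 3F cells (y axis, log2) against the mean signal of the 6 arrays (x axis, log2) for 18193 genes, with the 161 genes called higher in 4F in red, the 199 called lower in blue and all others in grey. Ifit1 and Rtp4 stand at the top, at 4.16 and 4.04, and H2-Q10 and Cdc42ep2 at the bottom, at -3.13 and -3.10.

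Interferon-stimulated genes held the 4 largest rises of all genes. Of 19 measured, 8 were higher in 4F and 0 lower, with a median difference of 0.79, against -0.01 and 0.885% called higher over all genes. Ifit1, which binds viral RNA lacking host cap marks, read 9.84, 8.75 and 8.87 in 4F, against 4.96, 5.16 and 4.86 in 3F. Its difference was 4.16 ± 0.41, or 17.9-fold (limma adjusted p = 1.45e-06). Rtp4, a chaperone of membrane receptors that interferon induces, read 11.45, 11.21 and 10.82 in 4F and 7.09, 6.99 and 7.29 in 3F. The difference was 4.04 ± 0.27, or 16.4-fold (limma adjusted p = 6.12e-09). In both genes every 4F array lay far above every 3F array, and R1 averaged 5.04 ± 0.27 for Ifit1 and 8.09 ± 0.66 for Rtp4 (SD, n = 3 each).

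Usp18, Xaf1 and Oas1a, other members of the list, were also called higher. Usp18, the protease that removes the ubiquitin-like Isg15 and restrains interferon receptor signalling, read 10.47, 9.99 and 9.64 in 4F, against 6.67, 5.95 and 6.29 in 3F (difference 3.73 ± 0.52, limma adjusted p = 0.000144). Xaf1, which promotes apoptosis, read 9.17, 8.96 and 7.97 in 4F and 5.22, 5.05 and 5.04 in 3F (3.60 ± 0.23, limma adjusted p = 3.79e-09). Oas1a, a sensor of double-stranded RNA, read 11.53, 11.45 and 10.64 in 4F and 9.08, 8.50 and 8.29 in 3F (2.58 ± 0.23, limma adjusted p = 5.2e-07). R1 stood between the lines for Xaf1, at 6.24 ± 0.31, and for Oas1a, at 10.17 ± 0.42, and below both for Usp18, at 5.58 ± 0.22 (SD, n = 3). Probe sets of Oas family members may share transcripts, so the level of Oas1a is uncertain to that extent.

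Ifit3, a partner of Ifit1, differed by 2.50 ± 0.24 (8.35, 8.45 and 8.03 in 4F, against 5.81, 5.64 and 5.88 in 3F). The remaining calls were Irf9, an interferon regulatory factor that binds DNA, at 1.66 ± 0.21, and Rsad2, an antiviral enzyme also called viperin, at 1.25 ± 0.21, both named after their values were seen. Rsad2 fell under 2-fold without 4F replicate 1, at 0.95, and the other 7 stayed called in every fit without 1 array. Irf7 and Bst2 passed the adjusted p (0.0302 and 0.0346) at 0.79 and 0.89, under 2-fold. Ifit2 differed by 0.34 ± 0.25 with overlapping arrays, and Ifitm3, which is high in pluripotent cells without interferon, by -0.38 ± 0.38, and neither was called. Of 11 genes of MHC class I antigen processing, another interferon-responsive group, 0 were called by limma in either direction and 0 had an unadjusted p under 0.05 (median difference -0.01). Feeder markers were at 9.39 to 10.34 in 4F and 10.82 to 11.61 in 3F, and macrophage markers averaged 8.20, 7.52 and 7.74 in 4F, against 7.68, 7.53 and 7.73 in 3F. Within 4F, replicate 1 was highest for the feeder markers, the macrophage markers and the mean of the interferon list (9.19, against 8.84 and 8.57 in replicates 2 and 3). The 4F arrays had the same order in Ifit1 as in the feeder markers, with replicate 2 lowest. In Rtp4, Usp18, Xaf1, Oas1a and Ifit3, as in the mean of the list, replicate 3 was the lowest 4F array. The part of feeder or macrophage RNA in these results was not tested.

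**Figure D2:**
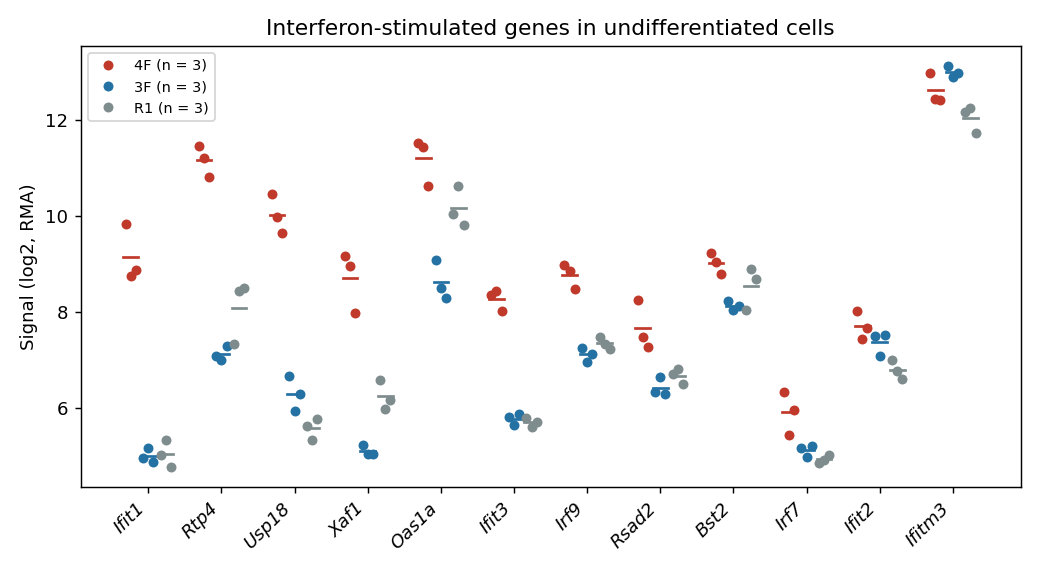
Signal (y axis, log2, RMA) of 12 interferon-stimulated genes in undifferentiated 4F, 3F and R1 cells, 1 point per array and a bar at the mean of 3. All 4F points lie above all 3F points for the 8 called genes, while those of Ifit2 overlap and Ifitm3 is slightly lower in 4F.

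The promoters of 5 called members are shown because they hold, or lack, the GAAA repeat known from interferon-stimulated genes. The search was for the letters GAAA, NN and GAAA in a row, where N is any base, on both strands over 250 bases before to 50 after the start of a gene, in RefSeq sequences of build GRCm38.p6, where 14368 of the genes tested had a promoter. The 200 bases before the start are printed 5' to 3' on the strand of the gene, with matches in capitals (a match on the other strand reads TTTC, NN and TTTC). They lie at chr19:34640689-34640888 (+) for Ifit1, chr19:34583329-34583528 (+) for Ifit3, chr5:120907526-120907725 (-) for Oas1a, chr12:26456453-26456652 (-) for Rsad2 and chr11:72301429-72301628 (+) for Xaf1.
Ifit1: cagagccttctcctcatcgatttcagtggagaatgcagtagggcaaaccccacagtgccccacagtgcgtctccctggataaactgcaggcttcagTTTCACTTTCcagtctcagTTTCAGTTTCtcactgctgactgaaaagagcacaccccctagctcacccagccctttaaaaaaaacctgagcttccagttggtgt
Ifit3: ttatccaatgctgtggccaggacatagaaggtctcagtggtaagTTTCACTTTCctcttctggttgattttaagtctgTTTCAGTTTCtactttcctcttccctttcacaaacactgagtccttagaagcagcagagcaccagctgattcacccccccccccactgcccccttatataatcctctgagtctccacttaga
Oas1a: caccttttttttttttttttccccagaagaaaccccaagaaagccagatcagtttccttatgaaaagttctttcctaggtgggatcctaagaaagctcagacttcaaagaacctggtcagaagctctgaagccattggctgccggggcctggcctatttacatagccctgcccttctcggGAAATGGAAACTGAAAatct
Rsad2: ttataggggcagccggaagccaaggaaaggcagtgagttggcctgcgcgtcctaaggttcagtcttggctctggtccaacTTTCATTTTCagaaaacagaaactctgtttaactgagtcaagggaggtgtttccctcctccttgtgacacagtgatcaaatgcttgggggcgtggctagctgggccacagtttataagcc
Xaf1: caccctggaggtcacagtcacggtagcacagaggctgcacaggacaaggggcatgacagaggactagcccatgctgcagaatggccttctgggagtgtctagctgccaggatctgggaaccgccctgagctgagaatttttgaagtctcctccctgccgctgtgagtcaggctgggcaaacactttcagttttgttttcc
Ifit1 and Ifit3 each hold 2 separate matches, Oas1a holds 2 that overlap, Rsad2 holds 1 and Xaf1 holds none in this window. The element was found in 4 of 6 called interferon-stimulated genes with a promoter (66.7%) and in 8 of 15 measured members of the list with a promoter (53.3%), against 3.64% of all 14368 genes. With members that were not measured, it was in 9 of 17 (52.9%). Among all genes called higher in 4F it was present in 12 of 131 (9.16%), and outside the interferon list in 8 of 125 (6.40%). Among genes called lower it was present in 4 of 146 (2.74%). These are matches of letters, not measured binding.

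The shared core of pluripotency did not differ by the test, and part of the naive set was higher in 4F. Pou5f1 read 12.52, 12.98 and 12.67 in 4F and 12.73, 12.86 and 12.50 in 3F, a difference of 0.03 ± 0.52. Differences were 0.33 ± 0.44 for Sox2, 0.40 ± 0.48 for Nanog and 0.46 ± 0.47 for Zfp42 (Rex1), and none was called. Of 27 pluripotency genes, 7 were called higher and 1 lower, with a median difference of 0.39. With the RNA index as a covariate, 6 were higher and 1 lower and the median was 0.15. Tbx3, a T-box factor that helps to sustain self-renewal, had the largest difference. It read 9.91, 10.02 and 9.50 in 4F, against 7.39, 7.58 and 7.24 in 3F (2.40 ± 0.48, limma adjusted p = 0.0039), and R1 averaged 8.29 ± 0.84 (SD, n = 3).

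Klf4, a Kruppel-like factor and one of the classical reprogramming factors, read 12.53, 12.59 and 12.39 in 4F, against 11.19, 11.32 and 11.16 in 3F and a mean of 11.12 ± 0.70 in R1 (SD, n = 3). The difference was 1.28 ± 0.31 (limma adjusted p = 0.0189), and the second probe set of Klf4 gave 1.28. Esrrb, an orphan nuclear receptor of the naive network, read 9.34, 9.80 and 9.43 in 4F and 8.03, 8.86 and 8.25 in 3F (1.14 ± 0.22, limma adjusted p = 0.00307). Tfcp2l1, a target of LIF signalling, was higher by 1.63 ± 0.41, Nr5a2, a nuclear receptor that activates Pou5f1, by 1.52 ± 0.42, Tcl1, a co-activator of Akt, by 1.43 ± 0.40, and Prdm14, a repressor of FGF signalling, by 1.40 ± 0.40. The 2 lines did not overlap in any of these 6 genes. A call on the array signal does not separate an endogenous gene from a reprogramming transgene.

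Apart from Tbx3 these calls rested on single arrays. The number of pluripotency genes called higher was 4, 2 and 3 without 4F replicate 1, 2 and 3, and 1, 4 and 2 without 3F replicate 1, 2 and 3. Esrrb dropped under 2-fold without 3F replicate 1, at 0.97. Its brightest probe set in these 6 arrays gave 1.31 without passing the test (adjusted p = 0.0912 in that setting), its dimmest 0.29, and the mean of its 3 probe sets 0.91, under 2-fold. The adjusted p of Klf4 rose to 0.0514 to 0.0893 without 4F replicate 2 or 3 or 3F replicate 1 or 3. Tcl1 lost its call in every such fit (adjusted p = 0.0614 to 0.243), Prdm14 in all but the fit without 3F replicate 2 (up to 0.268), Nr5a2 in all but that without 4F replicate 1 (up to 0.197), and Tfcp2l1 in all but that without 4F replicate 3 (up to 0.125). For Nr5a2 the probe set that was brightest in these 6 arrays gave 0.37, and the mean of its 4 probe sets 0.60, so the call depends on the probe set. With the brightest probe set in the 6 arrays for each gene, 5 pluripotency genes were called higher and 1 lower. Tfcp2l1 gave 0.67 as the mean of 3 probe sets.

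Of 9 reprogramming factors and their relatives, Klf4 was the 1 called. Myc read 9.87, 9.81 and 9.38 in 4F, against 9.51, 9.37 and 9.25 in 3F, a difference of 0.31 ± 0.19 (limma adjusted p = 0.485). Lin28a, an RNA-binding repressor of let-7 processing, differed by -0.63 ± 0.37. Of 16 Myc targets 0 were called by limma and 1 had an unadjusted p under 0.05 (median -0.04).

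Dppa3 (Stella), a maternal factor that guards methylation in the zygote and marks naive cells and germ cells, ran against the naive genes. It read 9.21, 9.63 and 8.54 in 4F, against 10.85, 10.79 and 10.63 in 3F and 10.77 ± 0.20 in R1 (SD, n = 3). The difference was -1.63 ± 0.36 (limma adjusted p = 0.00874), and without 4F replicate 3 it was -1.34 with an adjusted p of 0.0742.

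Of 12 primed epiblast genes, 2 were lower in 4F and 0 higher (median -0.35, and -0.66 with the RNA index as a covariate). Cldn6, a tight junction protein of the embryonic epithelium, read 8.88, 9.48 and 8.97 in 4F and 10.93, 10.89 and 10.81 in 3F (-1.77 ± 0.35, limma adjusted p = 0.00365), and it stayed called without any 1 array. Fgf5, the usual marker of the primed epiblast, read 5.67, 5.91 and 6.37 in 4F, against 8.60, 8.45 and 8.66 in 3F and 9.04 ± 0.21 in R1 (SD, n = 3). Its difference was -2.59 ± 0.67, and although the lines lay far apart its adjusted p of 0.0282 became 0.0614 to 0.113 whichever array was left out. The SD of Fgf5 was 0.36 within 4F and 0.11 within 3F (n = 3 each), smaller than the standard error of the fit over 9 groups. Dnmt3b, the de novo DNA methyltransferase of the epiblast, differed by -1.0 ± 0.33 (limma adjusted p = 0.0918).

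**Figure D3:**
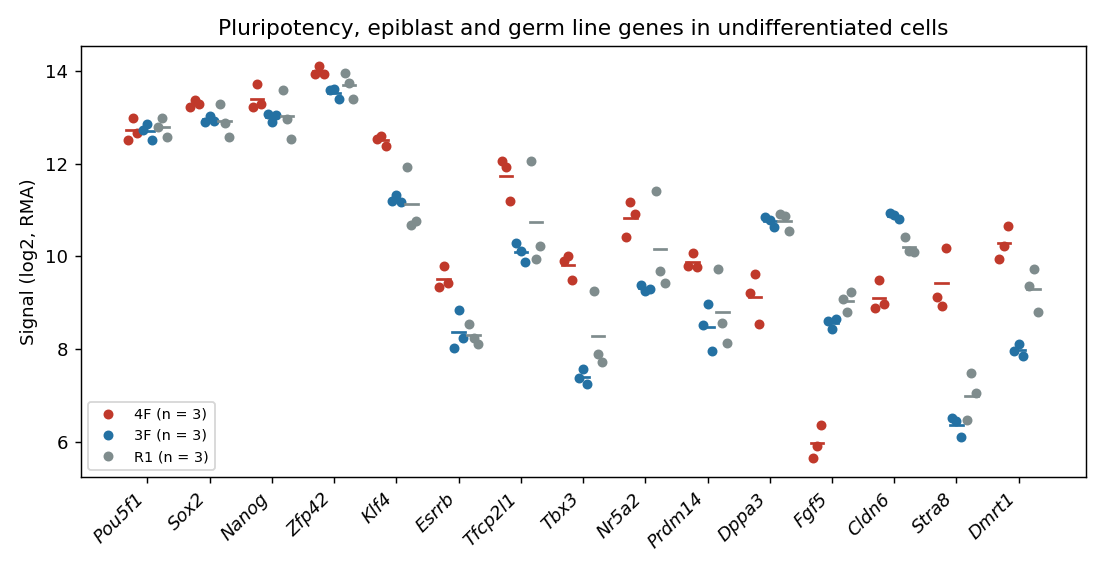
Signal (y axis, log2, RMA) of 15 pluripotency, epiblast and germ line genes in undifferentiated 4F, 3F and R1 cells, 1 point per array and a bar at the mean of 3. Pou5f1 arrays overlap between 4F and 3F, Klf4, Tbx3, Stra8 and Dmrt1 are higher in 4F, and Dppa3, Fgf5 and Cldn6 are lower.

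Of 12 FGF signalling genes, 1 was higher in 4F and 1 lower. Etv4, an ETS factor downstream of FGF and ERK, read 9.44, 9.43 and 8.96 in 4F and 7.02, 7.08 and 7.14 in 3F (2.20 ± 0.21, limma adjusted p = 1.15e-06). Dusp4, a phosphatase that inactivates ERK, read 9.49, 9.08 and 9.20 in 4F and 11.04, 10.42 and 10.88 in 3F (-1.53 ± 0.40). The call of Dusp4 (limma adjusted p = 0.0277) was lost without 4F replicate 2 or 3 or 3F replicate 1 or 3, at an adjusted p of 0.0947 to 0.135, and the list held 0 lower genes with the RNA index as a covariate.

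Stra8, Dmrt1 and Khdc3, known from germ cells, were higher in 4F. Of these, Stra8 is on the germ line list, and Dmrt1 and Khdc3 are outside it. Stra8, the retinoic acid target that is needed for entry into meiosis, read 9.13, 8.94 and 10.18 in 4F, against 6.52, 6.46 and 6.11 in 3F and 7.0 ± 0.51 in R1 (SD, n = 3). The difference was 3.05 ± 0.30, or 8.31-fold (limma adjusted p = 1.22e-06). Dmrt1, a sex determination factor of the testis, read 9.95, 10.23 and 10.66 in 4F and 7.97, 8.12 and 7.86 in 3F (2.30 ± 0.32, limma adjusted p = 0.000113). Khdc3, part of the oocyte's maternal complex, read 9.62, 10.12 and 9.45 in 4F and 6.36, 6.86 and 6.39 in 3F (3.19 ± 0.38), and in R1 it averaged 9.41 ± 0.35 (SD, n = 3), as high as in 4F. These 3 genes stayed called without any 1 array.

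The germ line list as a whole had 2 of 18 genes higher and 0 lower (median 0.31), Stra8 and Slc25a31. With the RNA index as a covariate 1 was higher and the median was 0.07. The second was Slc25a31, an ADP/ATP carrier of sperm, at 1.06 ± 0.24 (limma adjusted p = 0.0115), whose call was lost without 4F replicate 3 (1.0, adjusted p = 0.0618), 3F replicate 1 (0.93, 0.0771) or 3F replicate 3 (0.96, 0.0802). Of 18 extraembryonic endoderm genes, 3 were higher and 0 lower (median 0.30). Sox17, an endoderm transcription factor, read 6.35, 6.69 and 6.98 in 4F and 4.40, 4.83 and 4.56 in 3F (2.08 ± 0.43, limma adjusted p = 0.00554). Its second probe set, the brighter over these 6 arrays, gave 0.26, so the call depends on the probe set. Amn, an endocytic receptor subunit, at 1.60 ± 0.37, and Srgn, a proteoglycan, at 1.78 ± 0.44, were called in the full fit. Amn was lost without 4F replicate 2 (adjusted p = 0.0543) or 3 (0.0986) or 3F replicate 1 (0.0757) or 3 (0.0605), and Srgn without 4F replicate 2 (0.0826) or 3 (0.132) or 3F replicate 2 (0.0572) or 3 (0.111).

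Simple epithelial keratins were lower in 4F. Of 10 epithelial genes, 4 were lower and 0 higher (median -1.17). Krt8, a type II keratin, read 8.83, 8.32 and 8.82 in 4F, against 12.84, 10.86 and 10.77 in 3F (-2.83 ± 0.55, limma adjusted p = 0.00346). Its type I partner Krt18 read 7.12, 7.0 and 7.01 in 4F and 10.38, 8.64 and 8.43 in 3F (-2.10 ± 0.50, limma adjusted p = 0.0158). Krt19 read 6.40, 6.19 and 6.04 in 4F and 9.93, 8.28 and 8.40 in 3F (-2.66 ± 0.43, limma adjusted p = 0.000609). In each keratin 3F replicate 1 was the highest array and every 3F array exceeded every 4F array. R1 averaged 10.74 ± 0.85 for Krt8, 9.22 ± 0.70 for Krt18 and 8.10 ± 0.80 for Krt19 (SD, n = 3), near 3F.

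Without 3F replicate 1, Krt18 differed by -1.49 (adjusted p = 0.134), and its call was also lost without 4F replicate 2 (0.0698) or 3 (0.061), while Krt8 and Krt19 stayed called in every fit. Esrp1, a splicing regulator of epithelial cells, differed by -1.84 ± 0.44 (limma adjusted p = 0.0158). Its adjusted p was 0.0524 to 0.0925 without 4F replicate 2 or 3 or 3F replicate 1 or 2. Dsp, a desmosome plaque protein outside the list, read 9.06, 8.24 and 8.63 in 4F and 11.68, 10.23 and 10.68 in 3F (-2.22 ± 0.54), and was lost without 4F replicate 2 (adjusted p = 0.113) or 3 (0.0642) or 3F replicate 1 (0.125) or 3 (0.0605). Cdh1 (E-cadherin), which holds pluripotent colonies together, differed by -0.43 ± 0.37 and was not called (limma adjusted p = 0.704). Trophoblast genes, some of which are expressed with these keratins, gave 0 calls of 10 in limma, with 1 at an unadjusted p under 0.05.

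Neuronal cytoskeleton genes were lower in 4F, in 3 of 13 neural genes with 0 higher (median -0.21). Nefm, the medium neurofilament, read 5.49, 5.88 and 6.03 in 4F and 7.91, 8.01 and 8.45 in 3F (-2.32 ± 0.30, limma adjusted p = 5.93e-05). Nefl, the light neurofilament, read 10.87, 11.44 and 10.84 in 4F, against 12.82, 12.77 and 13.17 in 3F (-1.87 ± 0.45, limma adjusted p = 0.0162), and its second probe set gave -1.92. The adjusted p of Nefl passed 0.05 without 4F replicate 3 (0.0754) or 3F replicate 1 (0.0511) or 3 (0.0928). Map2, a microtubule-binding protein, differed by -1.73 ± 0.25 at its brightest probe set, and by -0.60 as the mean of its 4 probe sets. The 3 neural progenitor markers were not called.

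Fibroblast genes read lower in 4F without passing the test in most cases. Of 20 fibroblast and feeder genes, 18 had differences below 0 and the median was -1.17 (-0.64 with the RNA index as a covariate), but only Thy1, a surface glycoprotein of fibroblasts, was called. Thy1 read 10.22, 9.46 and 9.59 in 4F, against 10.98, 10.79 and 11.44 in 3F (-1.31 ± 0.21, limma adjusted p = 0.000437). Col1a1, the main chain of type I collagen, differed by -1.66 ± 0.63 (limma adjusted p = 0.164), Col3a1 by -1.79 ± 0.59 (0.0903) and S100a4 by -1.33 ± 0.39 (0.0553). A second, dimmer probe set gave -1.83 for Col3a1 (limma adjusted p over all probe sets = 0.00449) and -1.31 for Col1a1 (0.407). With only the 6 arrays in the fit, 13 of the 20 were called lower.

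Of 10 contractile genes, 3 were lower in 4F and 0 higher (median -1.26). Of 10 basement membrane genes 0 were called by limma and 3 had an unadjusted p under 0.05, all lower (median -0.47). Cnn1 (calponin), an actin-binding protein of smooth muscle and of cultured fibroblasts, read 9.47, 8.54 and 8.74 in 4F and 10.87, 10.31 and 10.81 in 3F (-1.75 ± 0.31, limma adjusted p = 0.00174). The tropomyosins Tpm1 and Tpm2 differed by -1.48 ± 0.37 and -1.20 ± 0.27. Tpm1 was not called without 4F replicate 2 (adjusted p = 0.161) or 3 (0.0627) or 3F replicate 1 (0.0884) or 3 (0.127), and Tpm2 without 4F replicate 2 (0.1) or 3F replicate 1 (0.0541) or 3 (0.0714).

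Timp3, an inhibitor of metalloproteinases bound to the matrix, read 9.83, 8.48 and 9.16 in 4F, against 11.65, 11.14 and 12.47 in 3F (-2.60 ± 0.42, limma adjusted p = 0.000557), and all 4 of its probe sets fell, by 1.97 to 2.60. Igfbp3, a secreted binder of IGF, differed by -2.72 ± 0.64, and the matrix protein Efemp1 by -2.31 ± 0.56. Ccdc80, a secreted matrix protein, read 10.41, 9.67 and 9.78 in 4F and 12.15, 11.56 and 12.60 in 3F (-2.15 ± 0.44). Without 3F replicate 3 the adjusted p was 0.0515 for Igfbp3, 0.122 for Efemp1 and 0.0524 for Ccdc80, and Igfbp3 and Efemp1 were also lost without 4F replicate 2 (0.0658 and 0.0897) or 3F replicate 1 (0.0966 and 0.0671), and Efemp1 without 4F replicate 3 (0.0619). The order of arrays in Timp3 and Cnn1, with 4F replicate 2 lowest, is that of the 8 feeder markers in 4F, and the part of feeder RNA in these results was not tested.

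Of 14 secreted inflammatory genes, 3 were higher in 4F and 0 lower (median 0.85). Mmp13, a collagenase, read 12.32, 11.26 and 12.06 in 4F, against 9.34, 9.21 and 10.76 in 3F and 7.84 ± 0.34 in R1 (SD, n = 3), a difference of 2.11 ± 0.32 (limma adjusted p = 0.000325). Lcn2, an iron-binding protein of the acute phase, read 6.94, 5.77 and 5.77 in 4F and 4.47, 4.25 and 4.65 in 3F (1.71 ± 0.24, limma adjusted p = 0.000154). Cxcl5, a chemokine for neutrophils, read 10.73, 9.57 and 10.84 in 4F and 7.59, 7.82 and 8.49 in 3F (2.41 ± 0.56, limma adjusted p = 0.0145), and lost its call without 4F replicate 3 (0.0802) or 3F replicate 1 (0.0752) or 2 (0.0511). The related Cxcl3, outside the list, read 7.88, 5.66 and 6.92 in 4F and 4.11, 3.91 and 4.0 in 3F (2.81 ± 0.31, limma adjusted p = 6.03e-06). In Mmp13, Cxcl3 and Cxcl5 4F replicate 2 was the lowest of the 4F arrays, as it was for the feeder markers. Within 3F, replicate 3 was highest for Mmp13, Cxcl5 and the feeder markers, and replicate 1 for Cxcl3. Between the lines, 3F had the higher feeder markers and the lower signal of these 3 genes. The part of feeder RNA in these results was not tested.

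**Figure D4:**
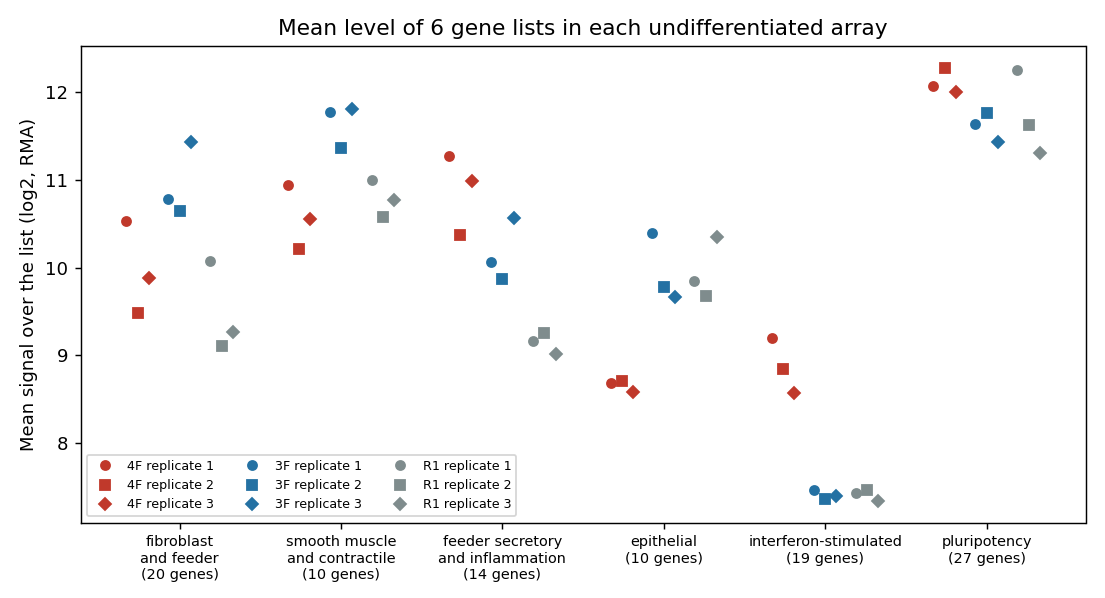
Mean signal (y axis, log2, RMA) over the measured genes of 6 lists in each undifferentiated array, with 4F, 3F and R1 in red, blue and grey and replicates as circle, square and diamond. Interferon-stimulated means are 8.57 to 9.19 in 4F and 7.36 to 7.47 in 3F, fibroblast means 9.48 to 10.53 in 4F and 10.65 to 11.42 in 3F, and epithelial means 8.59 to 8.71 in 4F and 9.66 to 10.40 in 3F.

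Of 9 genes measured on the Y chromosome, 2 were called lower in 4F and 0 higher (median -0.14). Uty, a Y-linked relative of the histone demethylase Kdm6a, read 6.99, 6.28 and 5.64 in 4F, against 8.24, 8.39 and 8.16 in 3F and 8.50 ± 0.25 in R1 (SD, n = 3). The difference was -1.96 ± 0.37 (limma adjusted p = 0.00258), and its second probe set gave -1.90. Eif2s3y, a translation initiation factor subunit, read 9.61, 9.04 and 9.08 in 4F and 11.26, 11.32 and 11.27 in 3F (-2.04 ± 0.56). Its adjusted p of 0.0378 became 0.0914 to 0.164 without any array other than 4F replicate 1. With the RNA index as a covariate, 1 of the 5 sex-linked genes was lower, against 2. Kdm5d was dim in both lines (4.37 ± 0.07 in 4F, 4.47 ± 0.10 in 3F, SD, n = 3 each) and was not called.

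On the X chromosome, 7 genes were called higher and 13 lower of 617, beside 0.885% higher and 1.09% lower over all genes. Xist, the RNA that silences an X chromosome, read 8.32, 7.77 and 8.72 in 4F and 7.39, 7.74 and 8.14 in 3F (0.51 ± 0.30, limma adjusted p = 0.482). Hprt, an X-linked purine salvage enzyme, read 12.27, 12.24 and 11.96 in 4F, against 13.60, 13.31 and 13.58 in 3F (-1.34 ± 0.33, limma adjusted p = 0.0204). Hprt lost its call without 4F replicate 2 (0.0681) or 3 (0.0954) or 3F replicate 1 (0.0812) or 3 (0.0928). The other 12 of 13 X-linked housekeeping genes were not called.

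Of 21 imprinted genes, 1 was called, lower (median -0.49). With the RNA index as a covariate, 0 were lower and 1 higher (median -0.24). Peg3, a paternally expressed zinc finger gene, differed by -1.67 ± 0.44 (limma adjusted p = 0.0311). Its call was kept in 1 of 6 fits without 1 array, that without 4F replicate 1, and the adjusted p elsewhere was 0.0704 to 0.191. In the Dlk1-Dio3 cluster, whose silencing has been used as a sign of incomplete reprogramming in mouse lines, the maternal noncoding RNA Rian was the 1 of 4 measured genes called. Rian read 9.86, 9.75 and 9.84 in 4F and 10.82, 11.00 and 11.22 in 3F (-1.19 ± 0.29, limma adjusted p = 0.0171). It was lost without 4F replicate 2 (0.0812) or 3 (0.0585) or 3F replicate 3 (0.103), and the mean of its 4 probe sets gave -0.82. Meg3 differed by -0.57 ± 0.45 and Mirg by -0.86 ± 0.25 (limma adjusted p = 0.0524).

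Several of the largest rises belonged to no list. Bcat2, the mitochondrial branched-chain aminotransferase, read 9.15, 9.83 and 9.63 in 4F, against 6.22, 6.01 and 5.73 in 3F and 9.94 ± 0.41 in R1 (SD, n = 3), a difference of 3.54 ± 0.26, or 11.7-fold. Mymx, a micropeptide of myoblast fusion, read 12.47, 12.68 and 12.66 in 4F and 9.54, 9.49 and 8.46 in 3F (3.44 ± 0.42). Fam25c, a gene of little-known function, rose by 2.91 ± 0.32, and Aard by 2.55 ± 0.31. For Bcat2, Fam25c and Aard R1 was at the level of 4F, with Fam25c at 11.90 ± 0.38 in 4F and 11.91 ± 0.27 in R1 and Aard at 10.73 ± 0.28 in 4F and 10.80 ± 0.42 in R1 (SD, n = 3 each).

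Cobl, an actin nucleator, rose by 2.82 ± 0.45, Slc47a1, an exporter of organic cations, by 2.63 ± 0.24, and Gprc5b, an orphan receptor, by 2.62 ± 0.36. Gprc5b averaged 8.02 ± 0.14 in 4F, 5.40 ± 0.34 in 3F and 8.06 ± 0.25 in R1 (SD, n = 3 each). A second, dimmer probe set gave 0.29 for Cobl and 0.55 for Gprc5b. All 7 genes stayed called without any 1 array, with adjusted p values in the full fit between 1.97e-08 for Bcat2 and 0.000487 for Cobl.

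The largest falls were H2-Q10 and Cdc42ep2. H2-Q10, a secreted class I histocompatibility protein, read 5.08, 5.49 and 5.58 in 4F, against 8.29, 8.64 and 8.58 in 3F and 5.88 ± 0.67 in R1 (SD, n = 3), a difference of -3.13 ± 0.31 (limma adjusted p = 1.5e-06). Class I genes are near-identical copies, so which of them this probe set measured is uncertain. Cdc42ep2, an effector of the Cdc42 GTPase that shapes actin, read 6.91, 7.04 and 6.74 in 4F, against 10.15, 9.98 and 9.85 in 3F and 6.82 ± 0.09 in R1 (SD, n = 3). Its difference was -3.10 ± 0.27 (limma adjusted p = 3.23e-07). In both genes 4F was at the level of R1, and 3F stood apart.

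Klhdc8a, a Kelch domain protein, fell by 2.37 on the log2 scale and Psors1c2 by 2.22, both with calls that stood without any 1 array. Sfmbt2, an imprinted Polycomb gene of the placenta, fell by 2.20, with its call lost without 4F replicate 2 (adjusted p = 0.0588) or 3 (0.0654) or 3F replicate 1 (0.0524). Ccdc141 and Rpgrip1 fell by 2.19 and 2.18 at their brightest probe sets only, and by 0.50 and 0.52 as the mean of all their probe sets. Cdkn2b, a cyclin-dependent kinase inhibitor, read 9.58, 8.95 and 9.69 in 4F and 10.65, 10.38 and 11.22 in 3F (-1.34 ± 0.26, limma adjusted p = 0.00371). It was 1 of 2 genes lower among 15 p53 targets and cyclin inhibitors.

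The 14 lists for cell growth, lineage commitment and signalling named in this paragraph held 5 calls in 193 distinct genes (2.59%), beside 1.98% over all genes. Other lineage and signalling lists, given above, are not in that share. Among them are neural (3 of 13 lower), extraembryonic endoderm (3 of 18 higher), contractile (3 of 10 lower) and FGF genes (1 higher and 1 lower of 12). The share therefore does not describe lineage or signalling genes as a class. In limma 0 were called of 17 cell cycle genes, 13 mesendoderm, 11 Nodal pathway, 14 cardiac progenitor, 19 cardiomyocyte and 11 endothelial genes, and 0 of 18 Wnt, 10 Notch, 10 Hox and 8 DNA methylation genes. At an unadjusted p under 0.05 there were 4 cell cycle, 0 mesendoderm, 1 Nodal pathway, 1 cardiac progenitor, 1 cardiomyocyte, 3 endothelial, 8 Wnt, 1 Notch, 1 Hox and 2 DNA methylation genes. The respiratory chain had 1 of 16 higher, glycolysis and hypoxia 1 of 16 lower, BMP and TGF-beta signalling 1 of 21 lower and immediate early genes 2 of 11 lower. At an unadjusted p under 0.05 these 4 lists had 3, 2, 10 and 8 genes. All 10 of BMP and TGF-beta signalling (median of the list -0.57) and all 8 immediate early genes were lower in 4F, so the pooled share does not describe these 2 lists. The share of all genes under that unadjusted p is not given here, so whether any of these counts is unusual cannot be told. Medians of these lists lay between -0.79 for immediate early genes and 0.15 for DNA methylation genes. A gene that was not called may still differ by less than the spread of the fit can show.

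The lines were set beside each other again at days 5 and 11, in arrays that did not enter the day 0 means. All arrays shared the estimate of the spread and the choice of probe sets, so the calls at the 3 days are not independent. Of the 360 genes, 128 (35.6%) were called the same way at day 5, when 7.48% of all genes were called, and 20 the opposite way. At day 11, when 10% of all genes were called, 102 (28.3%) were called the same way and 16 the opposite way. These are 9.41% of the 1360 genes called at day 5 and 5.59% of the 1824 called at day 11. A total of 60 genes were called the same way at all 3 days, 34 higher and 26 lower.

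Mymx, Dmrt1, Ccdc80, Uty and Eif2s3y were among these 60. Mymx averaged 12.61 ± 0.11 in 4F and 9.17 ± 0.61 in 3F at day 0 (SD, n = 3 each), and 4F minus 3F was 3.44 at day 0, 4.32 at day 5 and 3.71 at day 11. Dmrt1 differed by 2.30, 3.82 and 2.48 and Ccdc80 by -2.15, -3.59 and -2.58 on the same days. Uty differed by -1.96, -3.29 and -3.0, with 4F at 4.33, 3.85 and 5.01 and 3F at 7.71, 7.56 and 7.80 on day 5. Eif2s3y differed by -2.04, -4.02 and -2.98. The Eif2s3y signal of 4F was 6.03, 5.22 and 8.03 at day 5 and 6.41, 5.78 and 8.63 at day 11, with replicate 3 apart on both days, and the day 5 difference without it was -4.82.

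None of the 8 interferon-stimulated genes called higher in 4F at day 0 was called higher at day 11. Ifit1 read 4.52, 4.29 and 4.43 in 4F and 4.69, 4.41 and 4.84 in 3F at day 5, and 4.61, 4.57 and 6.84 in 4F and 5.54, 6.07 and 6.67 in 3F at day 11. Rtp4 read 6.94, 6.88 and 7.52 in 4F and 6.67, 6.74 and 6.71 in 3F at day 5, and 6.87, 6.96 and 7.70 in 4F and 7.75, 8.23 and 7.82 in 3F at day 11. The list had 1 higher and 1 lower of 19 at day 5, the lower one being Usp18 at -2.46, and 0 higher and 3 lower at day 11, among them Rsad2 at -1.41. Without 4F replicate 3 of day 11, which was the highest 4F array for Ifit1, 8 of the 19 were called lower at day 11. Oas1a, not called at day 11, still read 7.42, 7.29 and 7.19 in 4F, against 6.84, 7.08 and 6.62 in 3F, without overlap. Over all genes, 2.91% were higher and 4.57% lower at day 5, and 5.12% higher and 4.91% lower at day 11. The change of the difference between day 0 and day 11 passed the test for all 8 called genes, from -4.92 ± 0.58 for Ifit1 to -1.85 ± 0.30 for Irf9 (limma adjusted p up to 0.00456, for Usp18). Over all genes, 6.41% passed that test, and 136 of the 360 did. That test includes the day 0 values by which the 360 were called, so part of the higher share among them follows from their selection.

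**Figure D5:**
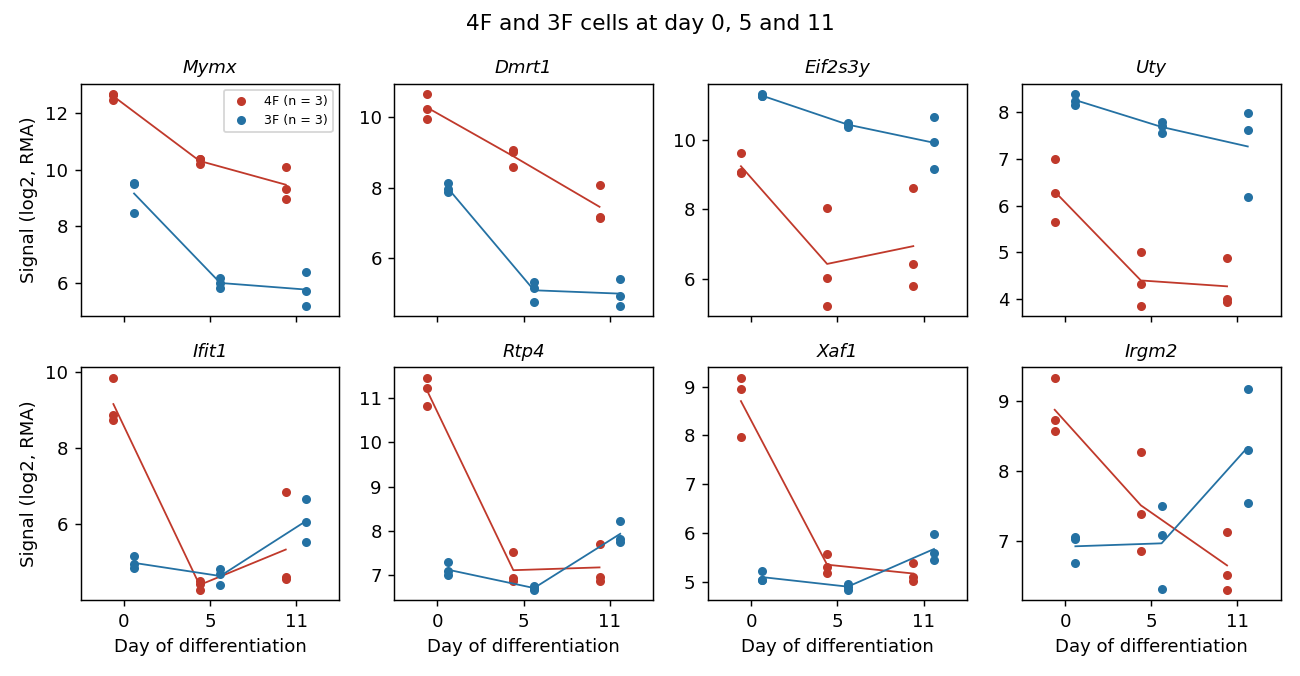
Signal (y axis, log2, RMA, own scale in each panel) of 8 genes in 4F (red) and 3F (blue) at day 0, 5 and 11 (x axis), 1 point per array and lines through the means of 3. Mymx and Dmrt1 stay higher and Eif2s3y and Uty lower in 4F at all 3 days, while Ifit1, Rtp4 and Xaf1 are far higher in 4F at day 0 and within 1 log2 unit of 3F later, and Irgm2 is higher at day 0 and lower at day 11.

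Krt8, Krt18 and Krt19 were lower in 4F at days 0 and 5 and not called at day 11. Krt8 differed by -2.83 at day 0, -3.30 at day 5 and -0.38 at day 11, and Krt18 by -2.10, -3.11 and 0.20. At day 5 Krt18 read 8.89, 8.73 and 10.86 in 4F and 12.26, 13.07 and 12.49 in 3F, with 4F replicate 3 apart. Without that array the day 5 differences were -4.18 for Krt8 and -3.80 for Krt18. The change of the difference between day 0 and day 11 was 2.66 ± 0.61 for Krt19 (limma adjusted p = 0.00755). Fgf5 was lower in 4F at day 0, at -2.59, and higher at day 5, at 2.46, a call lost without 4F replicate 1 or 2 or 3F replicate 2 or 3 of that day (adjusted p = 0.0675 to 0.0911). Zfp42, not called at day 0, was higher in 4F by 4.05 at day 5 and 5.40 at day 11. Pou5f1 differed by 0.03, 2.30 and 2.59 and Nanog by 0.40, 1.62 and 3.42 on the same days. Of 27 pluripotency genes, 19 were higher in 4F and 1 lower at day 5, and 19 higher and 0 lower at day 11, beside the 7 higher and 1 lower at day 0. Tbx3 was the lower one at day 5, when it read 7.14, 7.39 and 9.96 in 4F and 10.42, 10.25 and 10.38 in 3F, a difference of -2.19 (-3.08 without 4F replicate 3), and it was higher in 4F again at day 11, by 2.88.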

How the data were processed

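Total RNA of 27 cultures was measured on 27 Affymetrix arrays, labelled as biotinylated cRNA from 6 µg, per the labels' protocols. As deposited, the values are log2 signals from RMA, run by the authors per the submitters' processing notes, and its version is not given in the sources used here. They were used as deposited. The table held 45101 probe sets, 64 of them controls. The array annotation gave 34945 probe sets 1 symbol, 932 several and 9160 none, and 34741 matched RefSeq by gene identifier. Each of 18193 genes was represented by its brightest single-symbol probe set over all arrays, and 9010 genes had several. The number of arrays limits the precision. The labels call the replicates biological and say no more of their origin, so p values measure the spread between these cultures. Comparison of the arrays found 0 identical pairs.

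A mean for each of 9 groups was fitted with limma 3.58.1 (R 4.3.3), with Benjamini-Hochberg adjustment over all genes. The members and lists were chosen with earlier results of these data known. Named genes were the 15 largest rises and falls without provisional names, up to 6 members of each list by size, 5 each called oppositely at day 11 or alike at all 3 days, and a fixed set. Irf9, Rsad2, Irf7, Bst2, Ifit2 and Ifitm3 were added after their values were seen. The main fit did not pair arrays by replicate number, and whether the numbers mark pairs stayed undecided. Same-number correlations between 4F and 3F were 0.01, 0.38 and 0.14, and those of different numbers ran from -0.41 to 0.22. On simulated data of 18193 genes for this comparison, 43, 47, 50 and 50 of 50 genes changed by 1.25, 1.5, 2 and 3 (log2) were called, with 5 unchanged genes. The noise was drawn separately for each gene and array, with the spread of a gene equal in all groups. Shifts shared by many genes of an array were not simulated, so these counts may overstate what the real arrays allow. Alternatives covered normalization, dim genes, probe sets, thresholds, arrays in the fit, variance model, array weights, replicate block, RNA index and each array left out. Figures used Python 3.11.15 and matplotlib 3.10.9.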

Additional observations from a re-analysis of the deposited data

Results flagged for a closer look

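The difference of 4F minus 3F itself changed between day 0 and day 11 for 35 of the 71 called genes named in the text, by the interaction term of the limma fit. That term includes the day 0 values by which these genes were called, so part of such a change can follow from their selection. Values are given for the interferon list, for 5 of the genes called in opposite directions and for Krt19 (2.66 ± 0.61). For genes of the interferon list the change was -4.92 ± 0.58 for Ifit1, -4.80 ± 0.39 for Rtp4, -4.10 ± 0.33 for Xaf1, -3.50 ± 0.74 for Usp18, -3.18 ± 0.34 for Ifit3, -2.66 ± 0.30 for Rsad2, -2.13 ± 0.33 for Oas1a and -1.85 ± 0.30 for Irf9. Their 4F minus 3F differences were 1.25 to 4.16 at day 0 and -1.41 to 0.45 at day 11. The 3' minus 5' RNA index was higher in 4F than in 3F at both days, and the gap was wider at day 11. It read 1.21, 1.29 and 1.43 in 4F and 1.05, 1.17 and 1.06 in 3F at day 0. At day 11 it read 2.89, 2.74 and 2.44 in 4F and 1.58, 1.76 and 1.31 in 3F. The part of RNA quality in these changes was not tested.

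In all, 16 genes were called in opposite directions at day 0 and day 11. The 5 with the largest change are given, leaving out provisional names, so their p values belong to genes picked by that same change. Irgm2, an interferon-inducible GTPase outside the list, differed by 1.95 at day 0 and -1.69 at day 11, a change of -3.64 ± 0.57 (limma adjusted p = 0.000387). Nefl, the light neurofilament, differed by -1.87 and 1.59 on these days, a change of 3.46 ± 0.63 (limma adjusted p = 0.00133). Irx3, an Iroquois homeobox factor, differed by -1.78 and 1.54, a change of 3.32 ± 0.65 (limma adjusted p = 0.00249). Crabp2, which carries retinoic acid to its nuclear receptors, differed by -1.23 and 1.95, a change of 3.18 ± 0.32 (limma adjusted p = 2.39e-06). Lypd6b differed by -2.0 and 1.13, a change of 3.14 ± 0.51 (limma adjusted p = 0.000504). The day 0 call of Irx3 stood without 4F replicate 1 and was lost without any other array, with an adjusted p of up to 0.184 without 4F replicate 2.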

How the results depend on the processing

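The 360 calls became 217 at an adjusted p under 0.01, 772 with no fold minimum, 228 with treat against 1.2-fold, 615 with array weights and 553 with the replicate block in only the 6 arrays. Genes higher in 4F numbered 382 with no fold minimum. Lower genes numbered 101 at an adjusted p under 0.01, 390 with no fold minimum, 100 with treat, 347 with only the 6 arrays, 428 with array weights and 362 with the replicate block in only the 6 arrays. Without 1 array, the calls ranged from 192 (without 4F replicate 2) to 461 (without 4F replicate 1), the higher genes from 110 to 170 and the lower genes from 82 to 291. Without 3F replicate 3, 196 genes were called. The replicate numbers are shared without a stated pairing. The first 4F array correlated best with the third 3F array (r = 0.22), and 4F replicates 2 and 3 with the 3F array of the same number (r = 0.38 and 0.14). The replicate block over all arrays, chosen after seeing the data, gave 388 calls, and quantile normalization, likewise added for the change by day 11, gave 118 day 0 calls whose difference changed, against 136. Leaving out 1 array of the later day, also added, gave 110 to 142 day 0 calls called the same way at day 5 and 90 to 123 at day 11. Pou5f1, not called, changed sign with the RNA index as a covariate (-0.50), without 4F replicate 2 (-0.10) and without 3F replicate 3 (-0.07), and ranged up to 0.13 without other arrays. The causes of these changes were not tested. At day 0 the 71 called genes named kept their direction in all 1631 values, and 185 of these lost the call. Of 435 values for 19 genes not called, 16 passed the test. The median of all genes stayed within 0.01 under each normalization.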
